A study of Mus musculus with 4 samples.

Results

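The genes described here encode the subunits of oxidative phosphorylation, the mitochondrial machinery that makes ATP with oxygen. They were taken by symbol from the array's annotation, as every gene whose symbol begins with Nduf, Uqcr or Atp5, the 4 Sdha to Sdhd genes, and every Cox gene numbered from Cox4 to Cox8. This gave 90 of 18193 named genes, namely 44 of complex I, 4 of complex II, 8 of complex III, 17 of complex IV and 17 of complex V. The Nduf pattern also takes in 8 Ndufaf genes, whose proteins help to assemble complex I and are not part of it. Each gene was read from the probe set that was brightest in mean log2 signal. Of the 90 genes, 85 were called Present on all 4 arrays and 1, Ndufa4l2, on 1 array. The other 4 (Ndufb4, Cox4i2, Cox7b2 and Cox8c) were Present on none and are given no further value. The 86 genes with a Present call were compared with the 12754 genes of the whole array that had one.

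Complexes I and II pass electrons from NADH and succinate to ubiquinone, complex III passes them on to cytochrome c, and complex IV gives them to oxygen. Complexes I, III and IV pump protons out of the mitochondrial matrix, and complex V, the ATP synthase, lets them back in to make ATP. Oxidative muscle fibres and brown fat hold much of this machinery, and several complex IV subunits exist in a form of heart and skeletal muscle and a form made in most tissues. The genes measured here lie in the nucleus, whereas a further set of subunits is encoded in mitochondrial DNA.

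RNA came from C57BL/6J mice, from the parietal peritoneum that lines the abdominal wall. The mice were wild type (WT) or carried the SAP-BNP-Tg transgene (Tg). It expresses brain natriuretic peptide from the serum amyloid P promoter, and no further allele is named in the labels. Chlorhexidine gluconate (CG) was injected into the peritoneal cavity for 21 days, 3 times per week, at 0.01 mL per gram of body weight of a 0.1% solution made up in 15% ethanol and 85% PBS. Controls, in groups labelled PBS and called vehicle here, received ethanol/PBS, with no separate proportions, volume or schedule in the labels. Each of the 4 groups (PBS_WT, CG_WT, PBS_Tg and CG_Tg) is 1 array. The labels give neither the age of the mice nor how many mice went into an array, so no difference between arrays has a replicate check.

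The arrays called 50.5% to 55.1% of 45037 probe sets Present. PBS_WT differed from the other arrays in some control probe sets. Its scaled 18S rRNA signal was 1052, where the other 3 arrays had 81.5 to 108. The beta-actin 3′ over 5′ ratio was 1.22 there and 1.07 to 1.15 elsewhere. Gapdh gave 0.850 against 0.807 to 0.820 over 5′, and 0.888 against 0.843 to 0.888 over the middle. The beta-actin 3′ over middle ratio stood apart, at 5.81 there and 2.23 to 2.84 elsewhere. The medians of the oxidative genes, of each complex and of the gene lists in WT mice are therefore given against PBS_Tg too. For most single genes only the differences within a genotype are given, besides the isoform pairs. Mesothelial markers of the lining were present, with 11 of 12 genes Present on all 4 arrays. Skeletal muscle genes were among the brightest, and the 17 genes of fast muscle fibres had scaled signals from 4137 to 11435, the latter being the highest of any probe set. RNA of body wall muscle was thus part of each sample. In such bulk samples fewer cells of a type and less RNA per cell cannot be told apart.

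Oxidative phosphorylation genes had lower signal with chlorhexidine in both genotypes, by more in WT mice. The median log2 difference of the 86 genes was -0.78 for CG_WT minus PBS_WT and -0.30 for CG_Tg minus PBS_Tg, where the median of all 12754 genes was -0.00 and 0.00. Of the 86 genes, 81 lay below 0 in both genotypes, against 36.4% of all genes. In WT alone 82 were below 0 (50.1% of all genes) and in Tg mice 81 (49.9% of all genes). The genes moved as a narrow group. The interquartile range of their differences was 0.27 in WT mice and 0.21 in Tg mice, where that of all genes was 0.93 and 0.58. Other genes of like signal had narrower ranges than all genes. At a mean log2 signal from 11 to 12 the oxidative genes had 0.19 and 0.17 and other genes 0.73 and 0.49. From 12 to 13 the ranges were 0.19 and 0.12, against 0.43 and 0.34.

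A difference was called 2-fold when it reached 1 on the log2 scale, the brighter array was Present and its signal was not in the dimmest 25% of the Present probe sets there. By this rule 15 of the 86 genes were lower with chlorhexidine in WT mice, against 4.93% of all genes, and 1, Ndufa4l2, was higher, against 8.22%. Ndufa4l2 was Present on CG_WT alone and so entered the 86 genes only through the array where it was highest. In Tg mice 0 were lower (1.40% of all genes) and 0 higher (3.81%), so 0 were lower in both genotypes (0.823%). The genotypes share no array in these differences. Across the 85 genes Present on all 4 arrays their differences had a Pearson's r of 0.699 and a Spearman's rho of 0.544. Across 10321 other such genes the values were 0.718 and 0.670. Without the 5 genes Cox6a1, Cox7c, Cox6b2, Cox8a and Cox7a1, r was 0.466 and rho 0.454 over 80 genes. Of these 5, Cox7a1 had the lowest difference in WT mice only, and the others had the highest in both genotypes. Ndufaf6, the lowest in Tg mice at -0.88, was kept. Genes of 1 array share its scaling and are not independent points.

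**Figure D1:**
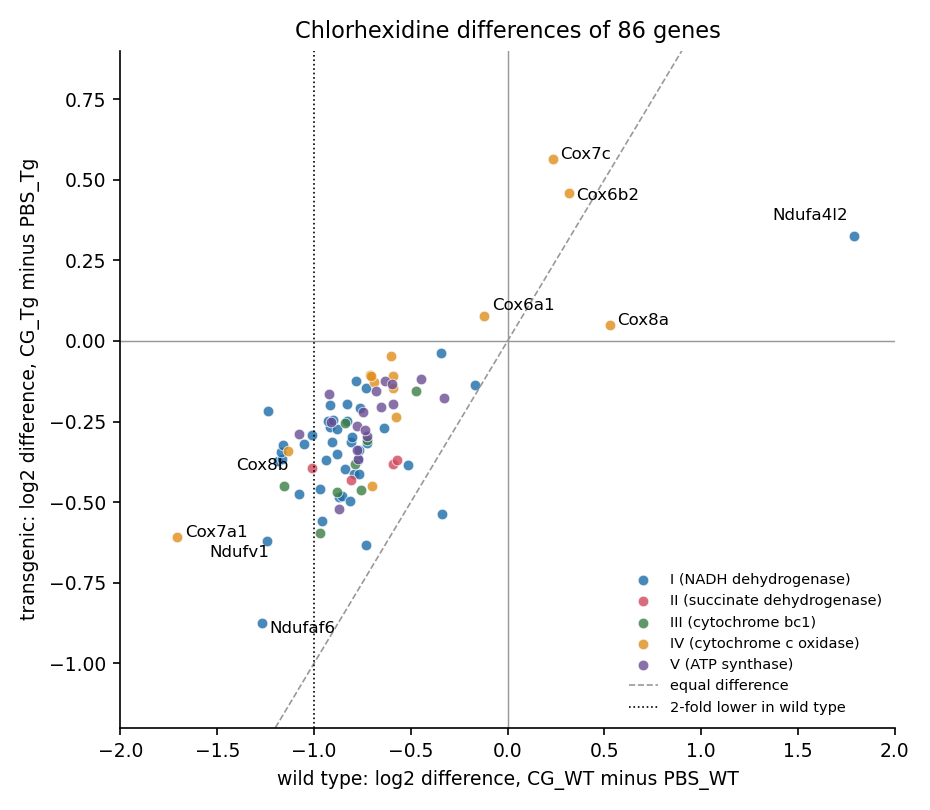
Log2 chlorhexidine difference of each of the 86 genes in WT mice (x axis, CG_WT minus PBS_WT) and in Tg mice (y axis, CG_Tg minus PBS_Tg), coloured by complex, where the dashed line marks equal differences and the dotted line a 2-fold lower signal in WT mice. Most genes form a cloud to the left of 0 and above the dashed line. Cox7a1 lies farthest to the left at -1.71, and Ndufa4l2, Present on CG_WT only, farthest to the right at 1.79.

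The 4 arrays fell in the same order for most of these genes. Of the 86 genes, 69 had their signals in the order PBS_WT, PBS_Tg, CG_Tg, CG_WT from high to low, against 14.8% of all genes. The highest signal lay on PBS_WT for 74 genes, on PBS_Tg for 8, on CG_WT for 4 and on CG_Tg for 0. The lowest lay on CG_WT for 76 genes, on CG_Tg for 5, on PBS_Tg for 3 and on PBS_WT for 2. Relative to each gene's mean, the median log2 signal was 0.38 on PBS_WT, 0.15 on PBS_Tg, -0.13 on CG_Tg and -0.40 on CG_WT. The WT arrays thus took both ends and the Tg arrays both middle places.

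**Figure D2:**
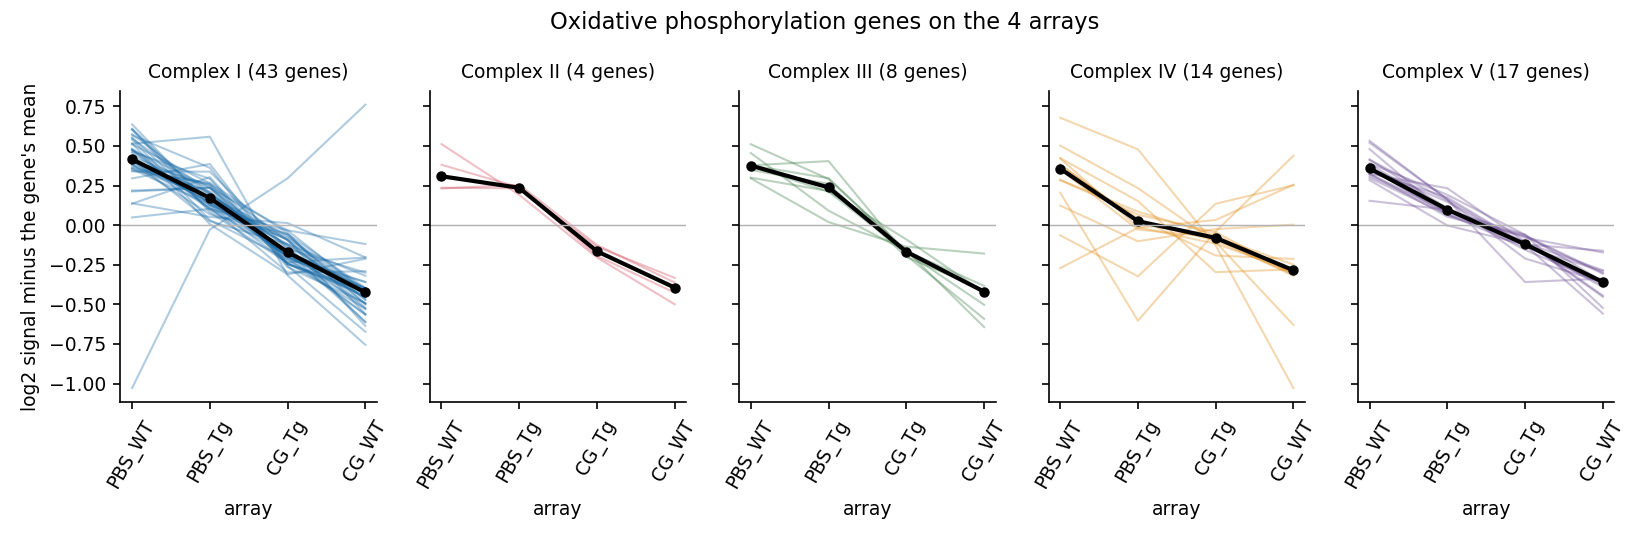
Log2 signal of each gene minus its own mean over the 4 arrays (y axis) on each array (x axis, ordered PBS_WT, PBS_Tg, CG_Tg, CG_WT), with 1 panel per complex, thin lines for genes and the black line for their median. The black line descends from left to right in each of the 5 panels, and the lines that end higher on CG_WT than on PBS_WT are Ndufa4l2 in complex I and Cox8a, Cox6b2 and Cox7c in complex IV.

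The genotypes differed in opposite directions under vehicle and under chlorhexidine. The median of PBS_Tg minus PBS_WT was -0.23 (all genes -0.04), with 76 of 86 genes below 0 against 55.4% of all genes. The median of CG_Tg minus CG_WT was 0.24 (all genes -0.03), with 10 of 86 below 0 against 53.2%. By the size rule 0 of the 86 genes were called in either comparison, where 0.502% of all genes were lower and 0.957% higher between the vehicle arrays, and 0.964% lower and 0.784% higher between the chlorhexidine arrays. The chlorhexidine difference of Tg minus that of WT mice was above 0 for 83 of 86 genes, against 51.2% of all genes, with a median of 0.46. Against the other genotype's vehicle array the 2 chlorhexidine arrays were alike, with medians of -0.55 for CG_WT minus PBS_Tg and -0.54 for CG_Tg minus PBS_WT. With that exchange 3 genes (Ndufaf6, Ndufv1 and Cox7a1) were 2-fold lower in WT mice in place of 15. The order of the complexes changed as well. For CG_WT minus PBS_Tg the medians were -0.63 in complex I, -0.64 in complex II, -0.66 in complex III, -0.31 in complex IV and -0.47 in complex V. For CG_Tg minus PBS_WT they were -0.59, -0.47, -0.55, -0.45 and -0.46. The difference between the vehicle arrays depended on scaling. Its median was -0.01 under quantile normalization and 0.18 with the signals as deposited, where the median of all genes was 0.37.

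Complex I, the NADH dehydrogenase, had a median of -0.85 in WT mice, the lowest of the 5 complexes against PBS_WT but not against PBS_Tg, and of -0.32 in Tg mice, and 42 of its 43 genes were below 0 in each genotype. It held 10 of the 15 genes that were 2-fold lower in WT mice. This was 23.3% of its genes, against 17.4% of the 86 genes and 4.93% of all genes. Ndufv1, which carries the NADH-binding site, had signals of 2744 on PBS_WT, 2379 on PBS_Tg, 1549 on CG_Tg and 1161 on CG_WT. Both vehicle arrays were above both chlorhexidine arrays, by log2 differences of -1.24 in WT mice and -0.62 in Tg mice. Ndufc1, a small membrane subunit, had 6594, 4736, 4076 and 2795 in the same order of arrays. Its differences of -1.24 and -0.22 set it among the 3 genes with the widest gap between genotypes, at 1.02 on the log2 scale for Tg minus WT. The accessory subunits Ndufb10 (-1.19 and -0.37), Ndufb6 (-1.17 and -0.35), Ndufa5 (-1.16 and -0.37), Ndufv3 (-1.08 and -0.47) and Ndufb3 (-1.05 and -0.32) were 2-fold lower in WT mice too. In each the CG_WT signal was the lowest of the 4. Some of these calls depended on the probe set. Further probe sets gave WT differences of -0.80 for Ndufb6, -0.91 for Ndufa5 and -0.997 for Ndufc1, each short of 2-fold. For Ndufv1 further probe sets gave -0.83 and -1.17 in WT mice.

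The nuclear core of complex I carries the flavin and the iron-sulphur clusters that lead electrons to ubiquinone. The 6 of its genes described here had medians of -0.87 in WT mice and -0.46 in Tg mice. Ndufs7, which holds the last cluster before ubiquinone, had signals of 3597 on PBS_WT, 2619 on PBS_Tg, 2140 on CG_Tg and 1787 on CG_WT, a 2.01-fold lower signal with chlorhexidine in WT mice and a log2 difference of -0.29 in Tg mice. Ndufs1, the largest iron-sulphur subunit, had nearly equal differences of -0.73 and -0.63. Its vehicle signals were 1883 in WT mice and 2005 in Tg mice, and its chlorhexidine signals 1135 and 1293. Ndufv2 had -0.92 and -0.27, Ndufs8 -0.82 and -0.50, and Ndufs3 -0.79 and -0.41. Other probe sets of Ndufs8 gave down to -1.49 and -1.30. A further probe set of Ndufs7 gave -0.99 and -0.41, just short of 2-fold in WT mice.

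The 8 Ndufaf assembly factors were more mixed, with medians of -0.64 and -0.35. Ndufaf6 had the lowest mean difference over both genotypes of the complex I genes, at 313 on PBS_WT, 323 on PBS_Tg, 176 on CG_Tg and 130 on CG_WT. Its vehicle arrays were alike and its differences were -1.27 and -0.88. Ndufaf5 was lower by -1.16 in WT mice and -0.32 in Tg mice. Ndufaf7 was at the other end, with 119, 124, 113 and 106 in the same order and differences of -0.17 and -0.14. Ndufaf2, at -0.34 and -0.54, was 1 of the 3 genes with a lower value in Tg than in WT mice, with Cox8a and Ndufa4l2. Without the 8 assembly factors the medians of the other 35 complex I genes were -0.87 and -0.32.

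Ndufa4l2 went the other way in WT mice. It encodes a relative of Ndufa4 known as a target of the low-oxygen factor HIF-1. Its signals were 57.5 on PBS_WT, 115 on PBS_Tg, 144 on CG_Tg and 199 on CG_WT, and only the last of these was called Present. The WT signal was therefore at least 3.46-fold higher with chlorhexidine, and no fold can be given in Tg mice. Ndufa4 itself, first described in complex I and later assigned to complex IV, had differences of -0.83 and -0.25.

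Complex II, the succinate dehydrogenase that also serves the citrate cycle, had medians of -0.70 and -0.39 over its 4 genes, and each was below 0 in both genotypes. Sdhb, its iron-sulphur subunit, had signals of 5822 on PBS_WT, 4662 on PBS_Tg, 3544 on CG_Tg and 2887 on CG_WT. It was 2.02-fold lower with chlorhexidine in WT mice, with a log2 difference of -0.40 in Tg mice. The membrane anchors Sdhd (-0.81 and -0.43) and Sdhc (-0.59 and -0.38) and the flavoprotein Sdha (-0.57 and -0.37) were not 2-fold lower. The vehicle arrays were closer here than for complex I, with a median of -0.07. A further Sdha probe set gave -1.02 and -0.31, so its place in this order depends on the probe set.

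Complex III, the cytochrome bc1 complex, had medians of -0.81 and -0.42, the latter the lowest of the 5 complexes in Tg mice against PBS_Tg but not against PBS_WT, with 8 of 8 genes below 0 in both genotypes. Uqcr11, a small accessory subunit, had 3803 on PBS_WT, 3266 on PBS_Tg, 2390 on CG_Tg and 1708 on CG_WT. It was 2.23-fold lower in WT mice and had a log2 difference of -0.45 in Tg mice. The core protein Uqcrc1 had vehicle signals of 2879 in WT mice and 2932 in Tg mice and chlorhexidine signals of 1470 and 1941. These gave -0.97, just short of 2-fold, and -0.60. The Rieske iron-sulphur protein Uqcrfs1 (-0.88 and -0.47) and the second core protein Uqcrc2 (-0.76 and -0.46) were close to them. A further Uqcrc2 probe set gave -1.27 and -0.53. Uqcrb, which helps to bind ubiquinone, had the smallest differences, with 10212, 8433, 7573 and 7347 in the order PBS_WT, PBS_Tg, CG_Tg, CG_WT, or -0.48 and -0.16. A further Uqcrb probe set gave -0.80 and -0.50, close to the medians of the complex, so its place depends on the probe set.

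Complex V had medians of -0.74 and -0.22, with 17 of 17 genes below 0 in both genotypes and 16 of 17 in the common order of arrays. By the brightest probe set of each gene, Atp5e, the epsilon subunit of the central stalk, was its only gene 2-fold lower in WT mice. Its signals were 4517 on PBS_WT, 3524 on PBS_Tg, 2886 on CG_Tg and 2139 on CG_WT, with differences of -1.08 and -0.29. Further probe sets of Atp5o (-1.14 and -0.05) and Atp5k (-1.08 and -0.34) also lay below -1 in WT mice. Atp5md, a small membrane subunit, had the lowest mean of the complex (-0.87 and -0.52). The catalytic beta subunit Atp5b had the mean difference over both genotypes nearest to 0 in the complex, with 5197, 4998, 4422 and 4144 in that order, or -0.33 and -0.18. Its partner Atp5a1, the alpha subunit, had -0.73 and -0.30, although a dim probe set of Atp5a1 gave 0.38 and 0.03. The rotor ring is made of 1 protein encoded by 3 genes. They had -0.91 and -0.25 (Atp5g1), -0.65 and -0.21 (Atp5g2) and -0.45 and -0.12 (Atp5g3).

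Complex IV, the cytochrome c oxidase, had the differences nearest to 0 and the most mixed genes, with medians of -0.60 and -0.11. Of its 14 genes, 11 were below 0 in WT mice and 10 in Tg mice, and 9 followed the common order of arrays. The 5 others were Cox8a, Cox6b2 and Cox7c, above 0 in both genotypes, Cox6a1, and Cox6a2, whose chlorhexidine arrays were nearly equal. Cox6b2, a form of testis, had signals between 19.6 and 29.1, and Cox7c between 26.7 and 54.9 (the signals at the 25th percentile of Present probe sets were 34.5 to 35.4). The widely expressed Cox4i1 (-0.59 and -0.11) and Cox6b1 (-0.70 and -0.11) resembled the complex as a whole.

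The forms of complex IV subunits made in striated muscle were lower with chlorhexidine than their widely made counterparts. Cox7a1, the muscle form of subunit VIIa, had 3411 on PBS_WT, 2970 on PBS_Tg, 1950 on CG_Tg and 1045 on CG_WT. This was 3.27-fold lower in WT mice, the largest such fold among the 86 genes, with a log2 difference of -0.61 in Tg mice. CG_Tg was above CG_WT by 0.90. Its counterpart Cox7a2 had 7169, 5307, 4937 and 4377 in the same order, or -0.71 and -0.10, and a further Cox7a2 probe set gave -0.63 and 0.02. Cox8b, the muscle form of subunit VIII, had 6656, 5525, 4363 and 3036, or -1.13 and -0.34. Cox8a had 411, 490, 507 and 592, an opposite order of arrays, or 0.53 and 0.05, and a further Cox8a probe set gave 0.37 and -0.04.

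The third pair showed the same sign. Cox6a2, the muscle form of subunit VIa, had 7060 on PBS_WT, 5852 on PBS_Tg, 4286 on CG_Tg and 4340 on CG_WT, or -0.70 and -0.45. Cox6a1 had 2597, 2222, 2343 and 2388, or -0.12 and 0.08. Further probe sets gave -1.08 and -0.64 for Cox6a2 and 0.28 and 0.06 for Cox6a1. Muscle minus widely made form, the log2 difference was -0.58 and -0.53 for subunit VIa, -0.996 and -0.50 for subunit VIIa, and -1.66 and -0.39 for subunit VIII, in WT and Tg mice. The median over these pairs was -0.996 and -0.50 and ranged from -1.15 to -0.97 and from -0.57 to -0.42 over the alternative settings. With the vehicle arrays exchanged between genotypes each pair was below 0 as well, the nearest to 0 being subunit VIIa at -0.27 for CG_Tg minus PBS_WT. The ADP/ATP carriers of the mitochondrial membrane, which are not subunits, had -0.52 and -0.15 for the muscle form Slc25a4 and 0.39 and 0.38 for the widely made Slc25a5. Cox7b was not analysed here, and for Cox4i2 and Cox7b2 no comparison could be made since they were Present on no array.

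**Figure D3:**
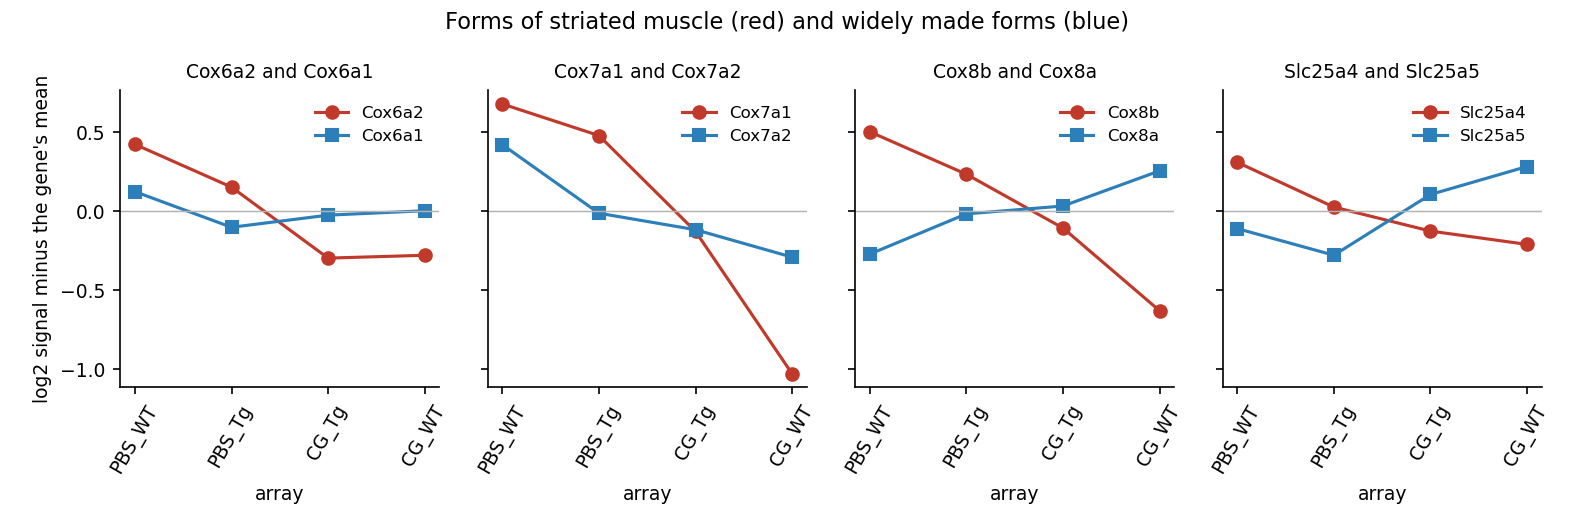
Log2 signal minus the gene's own mean over the 4 arrays (y axis) for the muscle form (red circles) and the widely made form (blue squares) of 3 complex IV subunits and of the ADP/ATP carrier, on each array (x axis). The red line ends below the blue line on CG_WT in each of the 4 panels, and the blue lines of Cox8a and Slc25a5 end above 0, at higher signal than on PBS_WT.

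Promoter windows are shown for the complex IV subunits of these pairs that had a window and for Uqcr11, as a description of the letters near the start. Windows came from RefSeq (assembly GRCm38.p6) and run from 250 bases before to 50 bases after the gene's start. Of the 90 genes, 74 matched, with 79 windows. Sequences read 5′ to 3′ along the strand of the gene. Capitals mark matches to the letters GCATGCGC of nuclear respiratory factor 1 (NRF1), CCGGAAG of the ETS factor GABPA, the E-box CAGCTG bound by muscle factors such as MyoD, and the TATA box TATAAA. NRF1 and GABPA matches were read on both strands, so CTTCCGG is a GABPA match on the other strand, and CAGCTG reads the same on both.
Cox7a1 promoter, chr7:30183921-30184220, plus strand: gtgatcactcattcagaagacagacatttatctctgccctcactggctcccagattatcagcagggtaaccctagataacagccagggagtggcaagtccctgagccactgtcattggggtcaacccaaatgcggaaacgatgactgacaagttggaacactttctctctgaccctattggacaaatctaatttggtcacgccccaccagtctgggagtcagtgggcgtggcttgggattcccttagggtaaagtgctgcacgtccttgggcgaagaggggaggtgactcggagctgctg
Cox7a2 promoter, chr9:79759804-79760103, minus strand: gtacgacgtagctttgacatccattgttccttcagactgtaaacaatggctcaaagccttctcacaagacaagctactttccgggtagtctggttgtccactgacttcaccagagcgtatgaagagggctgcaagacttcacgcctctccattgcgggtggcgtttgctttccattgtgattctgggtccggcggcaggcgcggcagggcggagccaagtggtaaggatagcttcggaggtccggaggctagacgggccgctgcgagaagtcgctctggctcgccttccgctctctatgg
Cox8b promoter, chr7:140900397-140900696, minus strand: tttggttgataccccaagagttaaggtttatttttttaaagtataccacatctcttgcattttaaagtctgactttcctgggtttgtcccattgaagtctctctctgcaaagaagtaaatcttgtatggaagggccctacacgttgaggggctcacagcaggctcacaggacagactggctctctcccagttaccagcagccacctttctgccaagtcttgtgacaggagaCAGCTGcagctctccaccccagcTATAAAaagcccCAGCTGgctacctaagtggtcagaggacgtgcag
Cox8a promoter, chr19:7217567-7217866, minus strand: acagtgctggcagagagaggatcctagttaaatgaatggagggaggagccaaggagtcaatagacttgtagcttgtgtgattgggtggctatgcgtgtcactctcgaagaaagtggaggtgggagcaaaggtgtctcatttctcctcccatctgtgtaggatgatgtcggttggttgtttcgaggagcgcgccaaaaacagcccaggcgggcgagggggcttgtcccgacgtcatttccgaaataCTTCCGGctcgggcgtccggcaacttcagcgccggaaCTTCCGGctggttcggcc
Cox6a1 promoter, chr5:115348909-115349208, minus strand: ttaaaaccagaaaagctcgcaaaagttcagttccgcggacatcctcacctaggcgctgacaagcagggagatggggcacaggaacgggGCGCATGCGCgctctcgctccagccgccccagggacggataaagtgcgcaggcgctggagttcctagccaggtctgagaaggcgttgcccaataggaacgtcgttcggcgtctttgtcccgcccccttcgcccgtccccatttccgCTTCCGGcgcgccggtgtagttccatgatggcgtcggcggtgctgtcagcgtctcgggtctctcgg
Uqcr11 promoter, chr10:80406772-80407071, minus strand: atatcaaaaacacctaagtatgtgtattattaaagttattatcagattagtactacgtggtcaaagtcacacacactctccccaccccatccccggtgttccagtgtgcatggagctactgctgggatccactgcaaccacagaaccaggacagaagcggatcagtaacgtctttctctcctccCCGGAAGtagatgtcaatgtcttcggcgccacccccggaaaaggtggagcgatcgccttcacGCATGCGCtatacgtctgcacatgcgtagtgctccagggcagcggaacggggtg
The window of Cox8b, a muscle form, held 2 E-box matches and 1 TATA box and 2 CpG dinucleotides. That of Cox8a held 2 GABPA matches and 19 CpG dinucleotides. Cox6a1 held the NRF1 letters on both strands at 1 overlapping place, 1 GABPA match and 32 CpG dinucleotides, and Uqcr11 held 1 match of each. The windows of Cox7a1 and Cox7a2 held none of the 4 motifs, with 7 and 20 CpG dinucleotides. Cox6a2 was not matched to a window.

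Over all windows of the 90 genes, the NRF1 letters were found in 13.9%, against 2.71% of 32851 windows of all genes and 4.67% of windows of the other genes tested here. The GABPA letters were found in 24.1%, against 8.86% and 15.7%. The letters TNAAGGTCA, bound by the oestrogen-related receptor alpha, were in 3.80% against 1.28% and 0.891%, and the E-box in 7.59% against 16.3% and 15.9%. The other motifs searched were the MEF2 motif (0% of member windows against 0.557% and 0.510%), CCAAT (41.8% against 37.4% and 37.0%), GGGCGG (45.6% against 35.7% and 59.2%) and TATAAA (11.4% against 13.6% and 8.25%), each on both strands. Genes with and without the NRF1 and GABPA letters were set side by side, with no test. In WT the median was -0.78 for 11 genes with the NRF1 letters and -0.82 for 61 without, and -0.81 for 19 genes with the GABPA letters and -0.83 for 53 without. In Tg mice the medians were -0.34 with and -0.27 without, for either motif. The 6 genes with the E-box had -0.92 in WT mice and -0.30 in Tg mice, and the 66 without it -0.80 and -0.29. A match is a description of the letters and not of binding.

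The WT median of genes outside the oxidative set ran from 0.14 in the band of mean log2 signal from 5 to 6 to -0.44 in the band from 11 to 12. The oxidative genes were therefore set beside other genes in the same band. Between 11 and 13, where 63 of the 86 genes lay, their median was -0.79 in WT mice and -0.30 in Tg mice, and that of 304 other genes -0.42 and -0.07. The difference of these medians was -0.38 and -0.22. It ranged from -0.55 to -0.32 and from -0.27 to -0.12 over the alternative settings. In this band 63 of 63 oxidative genes and 247 of 304 other genes were below 0 in WT mice, and 62 of 63 and 175 of 304 in Tg mice. In WT 11 of the 63 (17.5%) were 2-fold lower, against 9.21% of the other genes. The other genes of the band include the muscle genes named above.

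**Figure D4:**
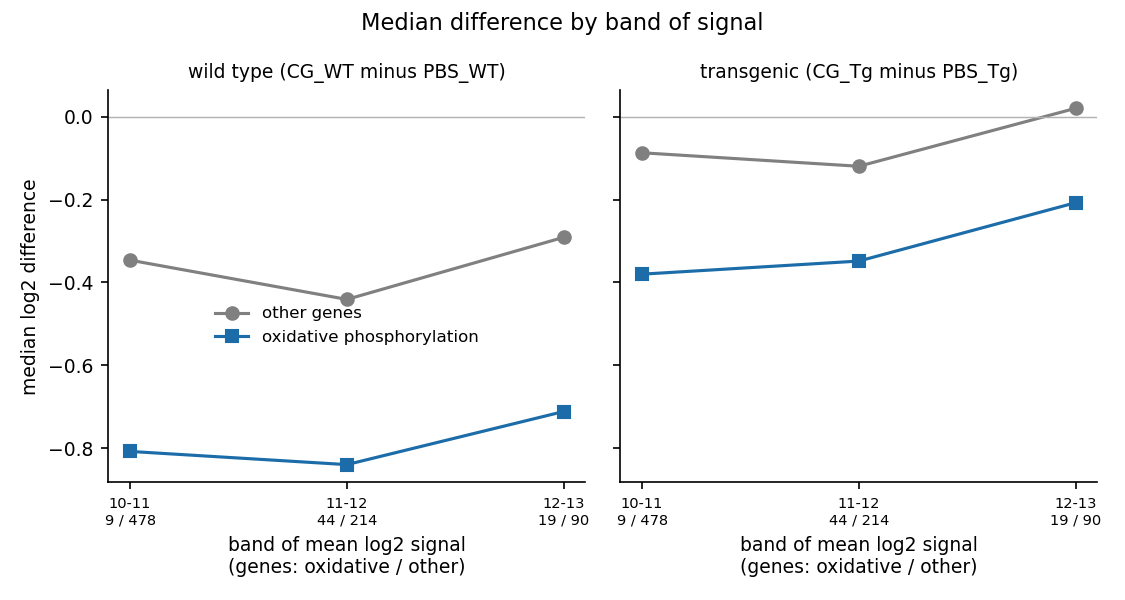
Median log2 chlorhexidine difference (y axis) of oxidative phosphorylation genes (blue squares) and of all other genes (grey circles) in bands of mean log2 signal (x axis, with the number of genes of each kind), in WT mice (left) and Tg mice (right), for the bands with at least 9 oxidative genes. The blue points lie below the grey ones in each band shown, at -0.84 against -0.44 in WT mice and -0.35 against -0.12 in Tg mice in the band from 11 to 12.

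Lists of genes that feed or serve the respiratory chain had medians below 0 in both genotypes, but not each held more 2-fold lower genes in WT mice than the 4.93% of all genes. That share was 46.2% in fatty acid oxidation, 35.7% in electron carriers, 13.3% in the citrate cycle, 5.71% in assembly factors and 2.63% in the mitochondrial ribosome. Against PBS_Tg their WT medians were -0.95, -0.73, -0.61, -0.51 and -0.38. Of 14 electron carrier genes, 5 were 2-fold lower in WT mice and 0 in Tg mice, with medians of -0.94 and -0.48. The ubiquinone genes Coq10a (-1.35 and -0.65) and Coq9 (-1.21 and -0.55) had the lowest mean differences, and Coq10b (-0.07 and -0.71) and Coq4 (-0.81 and 0.27) the highest. Cycs, cytochrome c, had signals of 7586 on PBS_WT, 6813 on PBS_Tg, 5106 on CG_Tg and 4348 on CG_WT. Fatty acid oxidation had medians of -0.95 and -0.60 over 13 genes, with 6 genes 2-fold lower in WT mice and 0 in Tg mice. Its thiolase Acaa2 (-1.34 and -0.85) and isomerase Eci1 (-1.21 and -0.54) had the lowest means. Acadl (-0.48 and -0.27) and Cpt1a, the carnitine transferase of liver and most other tissues (0.65 and 0.49), had the highest means.

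The citrate cycle had medians of -0.70 and -0.39 over 15 genes, with Fh1 (fumarate hydratase, -1.10 and -0.49) and Cs (citrate synthase, -1.08 and -0.39) 2-fold lower in WT mice. Suclg1 was at -0.97 and -0.56, and Mdh2 (-0.55 and -0.26) and Suclg2 (-0.51 and -0.28) had the means over both genotypes nearest to 0. Factors that assemble respiratory complexes had -0.63 and -0.28 over 35 genes, and 2 were 2-fold lower in WT mice, Coa6 (-1.08 and -0.63) and Sdhaf4 (-1.17 and -0.43). The copper chaperone Sco1 (0.20 and 0.45) and Lyrm7 (-0.19 and 1.19, Present on 1 array) had the highest means over both genotypes. The mitochondrial ribosome, which translates the subunits encoded in mitochondrial DNA, had -0.57 and -0.17 over 76 genes, with 2 genes 2-fold lower in WT mice. The cytosolic ribosome had -0.14 and 0.20 over 44 genes and the proteasome -0.21 and 0.04 over 37. Against PBS_Tg these WT medians were 0.24 and -0.08. The 1 mitochondrially encoded subunit on the array with a name, ND5 of complex I, had 10502, 9100, 9194 and 8508 in the order PBS_WT, PBS_Tg, CG_Tg, CG_WT, or -0.30 and 0.01.

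Among mitochondrial carriers and kinases, 4 of 12 genes were 2-fold lower in WT mice and 1, Ucp3, in Tg mice. The medians were -0.70 and -0.38, and -0.58 for CG_WT minus PBS_Tg. Ucp3, the uncoupling protein of skeletal muscle, had 689 on PBS_WT, 731 on PBS_Tg, 341 on CG_Tg and 206 on CG_WT. The fatty acylcarnitine carrier Slc25a20 (-1.30 and -0.55) was next to Ucp3 at the low end, and Atpif1, the inhibitor of the ATP synthase (0.12 and 0.40), was with Slc25a5 at the top. Ckmt2, the creatine kinase of muscle mitochondria, was lower by -1.21 and -0.39. Ucp1, the uncoupling protein of brown fat, was Present on no array.

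Regulators of mitochondrial genes were divided. Of 17 genes, 5 were 2-fold lower in WT mice and 1 higher, with medians of -0.58 and -0.29, and of -0.52 for CG_WT minus PBS_Tg. Perm1, a muscle regulator of mitochondrial genes, had 708 on PBS_WT, 590 on PBS_Tg, 319 on CG_Tg and 187 on CG_WT, or -1.92 and -0.89. Ppara, the fatty acid receptor, was 2-fold lower in both genotypes (-1.68 and -1.14). Esrra, the oestrogen-related receptor alpha, had 346, 332, 196 and 130 in that order, or -1.42 and -0.76. Its coactivator Ppargc1a (PGC-1 alpha) had 301, 221, 213 and 147, or -1.04 and -0.06. Nrf1 and Gabpa, whose motifs were counted in the promoters as was that of Esrra, had values nearer to 0. These were 0.21 and 0.19 for Nrf1 and 0.03 and -0.12 for Gabpa. Gabpb1, the partner of Gabpa, was 2-fold higher in WT mice (1.01 and 0.21), and Pprc1 had 0.65 and 0.11. Tfam, which packages mitochondrial DNA and helps to start its transcription, had -0.58 and -0.24.

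**Figure D5:**
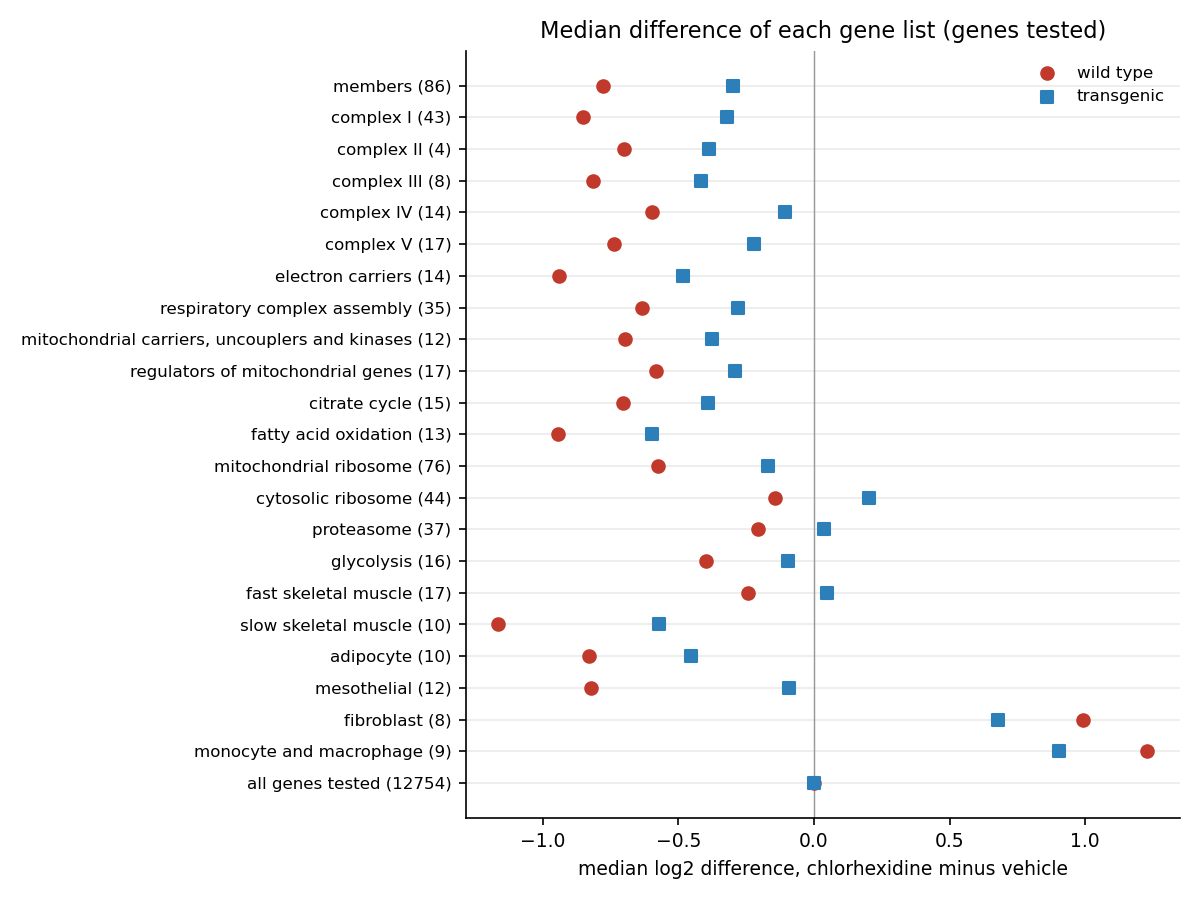
Median log2 chlorhexidine difference (x axis) of each gene list (y axis, with the number of genes tested), in WT mice (red circles) and Tg mice (blue squares). Each complex and each oxidative list lies left of 0 in both genotypes and farther left in WT mice, as do slow muscle and adipocyte markers, whereas fibroblast and macrophage markers lie right of 0.

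Of the markers of other cell types, those of slow muscle fibres and fat were lower with chlorhexidine in both genotypes, and those of mesothelium mainly in WT mice. Fast fibre markers had a lower median in WT mice against PBS_WT but not against PBS_Tg. The summed signal of 10 slow muscle fibre genes, which mark oxidative fibres, was 52726 on PBS_WT, 36748 on PBS_Tg, 25939 on CG_Tg and 24300 on CG_WT. This sum had the order of arrays of 69 oxidative genes, but only 6 of the 10 slow muscle genes had it singly. The slow muscle median of CG_Tg minus CG_WT was 0.05, with 4 of 10 genes below 0. These genes had medians of -1.16 and -0.57, with 6 of 10 2-fold lower in WT mice and 0 in Tg mice. The sum of 17 fast muscle genes was 151497 on PBS_WT, 124998 on PBS_Tg, 127262 on CG_Tg and 123301 on CG_WT, with medians of -0.24 and 0.05 and 0 genes 2-fold lower in either genotype. Of these, 17 were below 0 in WT mice and 5 in Tg mice. Their signals reached the highest of any probe set. Whether differences are smaller at such brightness was not tested. Glycolysis, the main source of ATP in fast fibres, had -0.40 and -0.10 over 16 genes. The sum of 10 adipocyte genes was 19759, 19293, 14062 and 10781 in the order PBS_WT, PBS_Tg, CG_Tg, CG_WT, with 4 genes 2-fold lower in WT mice and 2 in Tg mice. That of 12 mesothelial genes was 1030, 793, 775 and 517, with 5 and 0 genes 2-fold lower, medians of -0.82 and -0.09, and 10 and 6 genes below 0. For CG_WT minus PBS_Tg the medians were -0.53 in slow muscle, 0.03 in fast muscle, -0.12 in glycolysis, -0.98 in adipocyte and -0.86 in mesothelial genes. Each of the genes summed was Present on at least 1 array, none of the defining markers was at 0, and their part in the result was not tested.

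In summed signal, macrophage and fibroblast markers had the opposite order, and B and plasma cell markers the same order as most oxidative genes. The sum of 9 monocyte and macrophage genes was 5323 on PBS_WT, 5737 on PBS_Tg, 8567 on CG_Tg and 8933 on CG_WT, and that of 8 fibroblast genes was 20301, 20487, 33549 and 38954. Their medians were 1.23 and 0.90, and 0.99 and 0.68, and for CG_WT minus PBS_Tg 0.74 and 0.89. The sum of 5 B and plasma cell genes was 4178, 1786, 224 and 145 in the order PBS_WT, PBS_Tg, CG_Tg, CG_WT, with medians of -4.28 and -2.47, and of -3.23 for CG_WT minus PBS_Tg. Of these 5 genes, 3 had that order singly, and their median of CG_Tg minus CG_WT was 0.04. Brown fat genes had 0.05 and -0.07 over 6 genes. The 2 cardiac muscle genes tested disagreed with each other in sign. The part of these markers in the oxidative differences was not tested either.

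Probe sets of the same gene mostly gave the same sign. Of 179 probe sets of the 90 genes, 157 were Present on all 4 arrays. Their medians were -0.78 in WT mice and -0.27 in Tg mice, with 148 and 147 below 0. Of 47 genes with at least 2 such probe sets, 43 had a single sign in WT mice, and the others were Atp5a1, Cox6a1, Ndufa12 and Ndufab1. In Tg mice 42 had a single sign, and the others were Atp5a1, Cox7a2, Cox8a, Ndufa12 and Sdha. Within genes, the SD of the probe sets' differences was 0.333 in WT mice and 0.186 in Tg mice, below the size of the medians. Ndufa12 had the widest range in WT mice, from -1.10 to 0.90.

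An additive limma model over the 4 arrays, with treatment and genotype and 1 residual degree of freedom, gave the only test the design allows. It called 12 of 12754 genes for chlorhexidine after Benjamini-Hochberg adjustment at 0.05 (0.0941%) and 0 of the 86 oxidative genes, whose adjusted p in limma ran from 0.102 to 0.960. At an unadjusted limma p under 0.05 there were 26 oxidative genes, 25 of them lower, or 30.2% of them, against 23.0% of all genes (2939 genes). This share depended on the settings. It lay below that of all genes under cyclic loess (6 genes, 6.98% against 22.1%), under quantile normalization (9 genes, against 22.2%), with the deposited signals (5 genes, 5.81% against 16.8%), with the mean of probe sets (12 genes, against 16.9%) and with no filter (1 of 90 genes, against 2178 of 18193). It was 84.9% against 31.0% with a pseudocount of 32 (73 genes). The lowest adjusted p was that of Ndufaf6, with a limma log2 coefficient of -1.07 ± 0.23 (SE, 4 arrays) and an adjusted p of 0.102, and its signal was lower in both genotypes. Cox7a1 had -1.16 ± 0.33 with an adjusted limma p of 0.147. For genotype, limma called 0 genes at 0.05, with 633 genes and 1 oxidative gene at an unadjusted p under 0.05. The model takes unequal chlorhexidine differences of the genotypes as error. Its count of oxidative genes called ran from 0 to 52 over the alternative settings, with 52 after adding a pseudocount of 32, 27 over genes Present on all 4 arrays and 17 with an intensity trend in the variance prior.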

How the data were processed

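Parietal peritoneum RNA was purified with an RNeasy Mini kit, made into biotin-labelled RNA by in vitro transcription, per the labels, and hybridised to Affymetrix mouse arrays, 4 in all. Per the file headers, the deposited files hold an intensity signal on a linear scale for each probe set. They also hold the authors' detection calls (Present, Marginal or Absent) with their p-value, per the file headers. The signal algorithm is not given in the sources used here, nor is a scaling target. The raw scanner files were lost, per the series' design text. The small number of arrays limits the precision of all values.

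Each array was multiplied to a common 2% trimmed mean (factors 0.877 to 1.17), and values were taken to log2 after a floor of 0.1. Of 45101 probe sets, 64 were controls, 34945 had 1 gene symbol, 932 several and 9160 none in the table used here. Member symbols were matched as the annotation gives them. A further 8 matching symbols occur only on probe sets with several symbols and are not reported by name. Folds whose dimmer array was not Present are lower bounds, computed against that probe set's signal or the lowest Present signal of the array, whichever was higher. The additive model ran in limma 3.58.1 (R 4.3.3) over 12754 genes and was tested on simulated data. Other values were computed with Python 3.11.15, pandas 2.3.3 and numpy 2.4.6. Promoter letters were searched in RefSeq windows of 300 bases.

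The members, lists and tests were chosen with earlier results of these data known. Genes were named by a rule: members past the size rule, the 3 lowest and the highest by mean difference in each complex, isoform pairs, core subunits of each complex, the widest gaps between genotypes, and, of the lists of mitochondrial pathways and their regulators, the 2 lowest and 2 highest genes and a short set including Ppargc1a. Other genes named, among them probe sets that disagree, were chosen after their values were seen. For the ribosome, proteasome, glycolysis and cell type lists only values of the whole list are given (medians, counts or summed signals). The band of log2 signal from 11 to 13 was added after seeing the data. Alternatives were other scalings (quantile, cyclic loess, median centring, recentring on genes outside muscle and oxidative lists, the deposited signals), other filters, probe set rules, member patterns, thresholds and pseudocounts, and the other genotype's vehicle array.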

Additional observations from a re-analysis of the deposited data

Results flagged for a closer look

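Cox6a1, the widely made form of subunit VIa of cytochrome c oxidase, went in opposite directions with chlorhexidine in the genotypes, with a log2 difference of -0.121 between the wild-type arrays and 0.0767 between the transgenic arrays. Each value rests on 1 array per group, and the difference between them was not tested. Both values are smaller than the within-gene SD of probe sets, 0.333 and 0.186.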

How the results depend on the processing

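Settings were compared by whether a median moved by more than the within-gene SD of probe sets, or a count by more than 1.5 times. The medians of all 86 genes and of each complex stayed below 0 for chlorhexidine in both genotypes under each alternative run. The nearest to 0 was complex IV in transgenic mice, which rose to -0.022. Less the median of all genes, it came as near to 0 as -0.0019. In wild type the member median was -0.44 under quantile normalization and -0.43 under cyclic loess, where complex III had -0.45 and -0.43 and complex V -0.38 and -0.30, and complex IV had -0.16 under cyclic loess. The count of members 2-fold lower in wild type was 3 under quantile normalization, 3 under cyclic loess, 31 with median centring, 31 with recentring on genes outside muscle and oxidative lists, 2 with the signals as deposited, 7 without probe sets ending in _x_at, _s_at or _a_at, 3 against the transgenic vehicle array, 72 at 1.5-fold and 1 at 3-fold. In transgenic mice the member median was -0.50 with the deposited signals and -0.54 against the wild-type vehicle array. There complex I had -0.53 and -0.59, complex IV -0.31 and -0.45 and complex V -0.43 and -0.46, and with the deposited signals complexes II and III had -0.59 and -0.62. The transgenic count of 0 became 1 with the deposited signals and 5 at 1.5-fold. The vehicle difference was -0.0077 under quantile normalization and turned to 0.18 with the deposited signals. The median of CG_Tg minus CG_WT kept its sign, from 0.11 to 0.31. Scaling moved the wild-type median of all genes to -0.11 (quantile), -0.13 (median centring), -0.14 (recentred) and 0.25 (deposited), and with the deposited signals that of the transgenic difference to -0.20 and of the vehicle difference to 0.37. The limma fit called 0 genes for chlorhexidine under cyclic loess, quantile normalization, the mean of probe sets or no filter, 7 with median centring, 117 when recentred, 722 with the deposited signals, 2228 over genes Present on all 4 arrays, 2358 with a pseudocount of 32 and 2483 with an intensity trend, with 27, 52 and 17 members in the last 3. The cause of these changes was not tested. Unadjusted limma counts of members ran from 1 with no filter to 73 with the pseudocount. No paired analysis was possible because each group is 1 array, and the limma model already has genotype as a term.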

Other observations

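Probe sets with several gene symbols, which were left out of the 90 genes, included 10 with a symbol of the oxidative set, and 6 of these were Present on all 4 arrays. They match Ndufs5, Ndufb4, Ndufa11, Ndufs6 or Ndufab1 together with a near copy, so no value belongs to 1 gene. Their log2 chlorhexidine differences ran from -1.08 to -0.68 in wild type, with a median of -0.90, and from -0.57 to -0.21 in transgenic mice, with a median of -0.31. The median of PBS_Tg minus PBS_WT was -0.27 and that of CG_Tg minus CG_WT was 0.26. Ndufb4, whose own probe set was Present on no array, occurs on a pair of these bright probe sets.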
